A study of Rattus norvegicus with 16 samples.

Results

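Of 9336 genes with a group mean of at least 5 TPM (RNA level scaled to transcript length and to the library) in Control, LPS or LPS+ApoA-I libraries of primary rat microglia, 151 differed little between LPS and Control and differed between LPS+ApoA-I and LPS. These genes were chosen by their measured values in the 3 groups: an absolute log2((LPS+1)/(Control+1)) under 0.4 and an absolute log2((LPS+ApoA-I+1)/(LPS+1)) of at least 0.7, both taken on group mean TPM. In LPS+ApoA-I libraries 85 of them stood higher than in LPS libraries and 66 stood lower. They were 1.62% of the 9336 genes and 4.24% of the 3561 genes that met the LPS condition. Their small LPS response holds for TPM: scaled so that most genes stand level, many of them were higher in LPS than in Control libraries.

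Bulk RNA was sequenced from wild-type primary rat microglia at day 12 in vitro in 4 groups of 4 libraries. Control cells received neither agent, ApoA-I cells received apolipoprotein A-I protein at 100 ug/ml in the medium, LPS cells received lipopolysaccharide at 100 ng/ml for 20 hours, and LPS+ApoA-I cells received both. The design compares the protein with its absence in resting and in LPS-treated cells. Nothing in the labels ties replicates to separate cultures or animals, so a p-value here reflects only how far these libraries scatter, and that scatter may be technical.

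Microglia are the resident macrophages of the brain, and they sense LPS, the endotoxin of Gram-negative bacteria, through Toll-like receptor 4 and the NF-kB and interferon pathways. ApoA-I is the main protein of high-density lipoprotein and takes up cholesterol and phospholipid from macrophages through the transporter ABCA1.

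Libraries held 12304916 to 17262383 estimated counts in total. The files list genes by rat Ensembl identifier and pair none with a name, so no member could be given a function, and microglial and other cell type markers could not be read; the cell type is that of the labels. In bulk RNA, fewer cells of a type and less RNA per cell cannot be told apart. Among the 81 higher members with enough counts to be tested, Control 4 was the highest Control library in 38 and ApoA-I 1 the highest ApoA-I library in 57. Over all tested genes these shares were 21.3% and 49.2%. Where the call of a single member described below turns on these libraries or on ApoA-I 4, the value without them is given beside it.

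The median gene of the 9336 had a log2 TPM ratio of -0.35 for LPS over Control and 0.14 for LPS+ApoA-I over LPS. The window of 0.4 around 0 for LPS therefore held the median gene close to its lower edge. The higher members had a median LPS ratio of -0.15 and the lower members one of 0.17. Both were above that of the median gene, as the window itself favours, so nothing is read from this. Just inside the LPS limit the absolute ratios were 0.3993 and 0.3992, and just outside it 0.4051 and 0.4071. For LPS+ApoA-I over LPS the nearest ratios inside and outside the limit were 0.70 and 0.698 for higher genes and -0.72 and -0.6963 for lower genes. The nearest group mean TPM values to the limit of 5 were 5.34 inside and 4.94 outside.

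**Figure D1:**
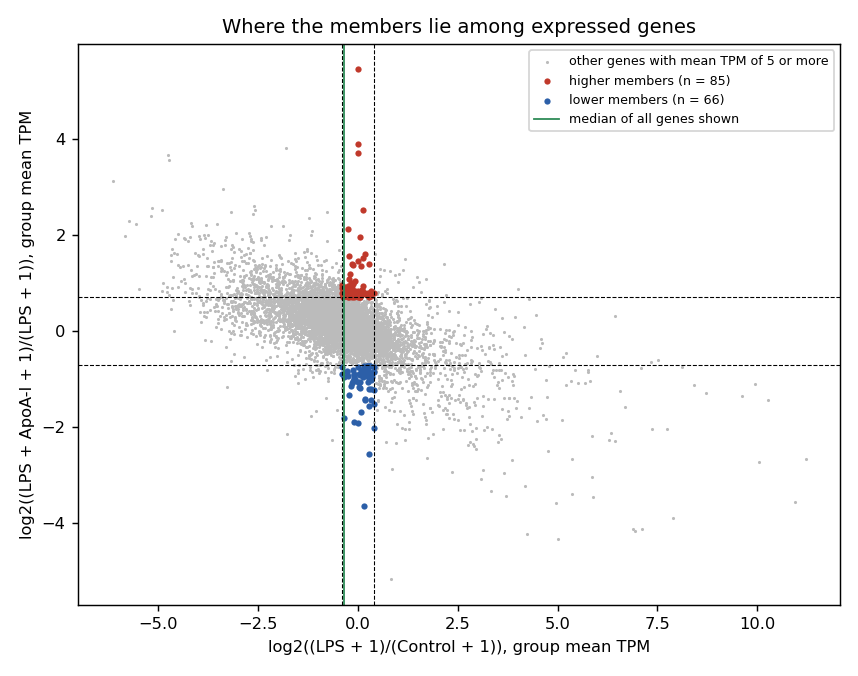
Each point is 1 of 9336 genes, with the log2 ratio of group mean TPM plus 1 for LPS over Control on the horizontal axis and for LPS+ApoA-I over LPS on the vertical axis; dashed lines are the limits of 0.4 and 0.7. The 85 higher members (red) and 66 lower members (blue) fill the middle columns above and below the limits, and the median gene (green line, -0.35) lies near the left limit.

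Most higher members differed by less than 1 log2 unit between LPS+ApoA-I and LPS libraries. Their log2 ratio of LPS+ApoA-I over LPS had a median of 0.81 and ran from 0.70 to 2.51 in the 81 with enough counts to be tested. It was under 0.8 in 39 of 85, at least 1 in 19 and, among the 81, at least 2 in 2. Mean TPM in LPS libraries was under 10 in 32 members, 10 to 100 in 49 and at least 100 in 4. All 4 LPS+ApoA-I values lay above all 4 LPS values in 77 members, against 36.6% of the 9336 genes, and above all 12 other libraries in 64, against 5.22%. The rule used these libraries, so these counts are a description.

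The lower members had a median level of 30.8 TPM in LPS libraries, beside 16.5 TPM for the higher members and 17.7 TPM for the 9336 genes. Their log2 ratio of LPS+ApoA-I over LPS had a median of -0.94 and ran from -2.56 to -0.72 in the 65 with enough counts to be tested. It was under 0.8 in size in 13 of 66 and at least 1 in 27. Mean TPM in LPS libraries was at least 100 in 17 members, 10 to 100 in 37 and under 10 in 12. All 4 LPS+ApoA-I values lay below all 4 LPS values in 64 members, against 16.7% of the 9336 genes, and below all 12 other libraries in 60, against 5.88%. In edgeR's quasi-likelihood fit, 77 of 81 tested higher and 64 of 65 tested lower members passed an adjusted p of 0.05 for LPS+ApoA-I against LPS, beside 51.4% of all 11902 tested genes, and nothing is read from this because the rule used that contrast.

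**Figure D2:**
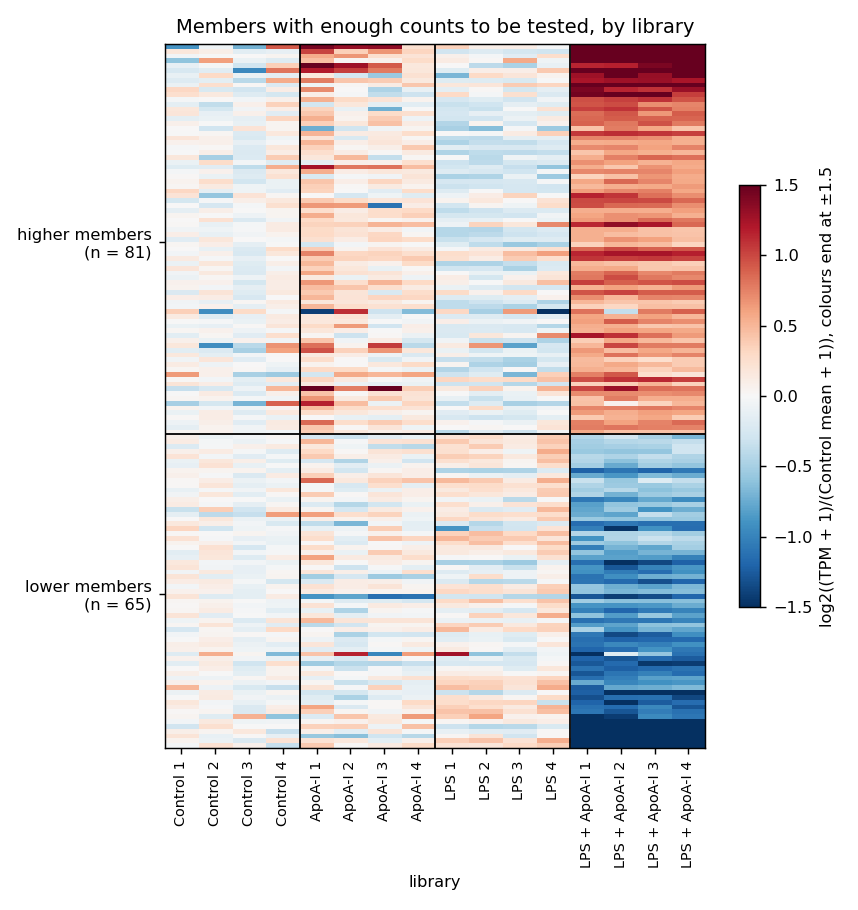
Each row is 1 of the 146 members with enough counts to be tested and each column a library; colour is log2((TPM+1)/(Control mean+1)), from blue (lower) to red (higher), ending at 1.5 in size. The 4 LPS+ApoA-I libraries stand apart from the other 12 in most rows, while the ApoA-I libraries show red in part of the higher rows, most often in ApoA-I 1.

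The tested higher members summed to a TPM of 9395 ± 801 (SD, n = 4) for Control, 10472 ± 1157 for ApoA-I, 11042 ± 534 for LPS and 18853 ± 776 for LPS+ApoA-I libraries. A single gene carried most of this sum. Without it the sums were 2443 ± 192, 2947 ± 273, 2260 ± 91.8 and 4383 ± 69.0. Summed over the tested lower members, TPM was 7909 ± 551, 7849 ± 520, 8890 ± 550 and 3824 ± 145 in the same order. Without the most abundant lower member these sums were 5106.5 ± 268.3, 4829.9 ± 162.8, 5219 ± 302.8 and 2539.9 ± 61.92, so most of the LPS rise lay in that gene.

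The gene that carried the higher sum had TPM values of 7041, 6755, 6269 and 7746 in Control and 8706, 7716, 6969 and 6709 in ApoA-I libraries. It had 8675, 8445, 8577 and 9433 in LPS and 13553, 14786, 15222 and 14320 in LPS+ApoA-I libraries. LPS+ApoA-I stood apart from all other libraries, and Control and ApoA-I overlapped. All LPS values were above all Control values, and the gene met the rule in TPM but not on the TMM scale described below. All 16 of its estimated counts were not whole numbers, as happens where RSEM divides a read among several matches, so its level is uncertain. Of the higher members 10, and of the lower members 7, had mostly such counts, beside 6.86% of the 9336 genes.

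Among members whose LPS+ApoA-I and LPS values did not overlap, ENSRNOG00000002217 had the largest ratio upward. In TPM it had 25.41, 45.52, 28.77 and 90.99 in Control, 129.75, 118.97, 121.44 and 56.29 for ApoA-I, 60.79, 50.69, 51.24 and 47.03 for LPS and 252.84, 304.80, 333.58 and 323.92 with both agents. LPS+ApoA-I was above every other library by a wide gap, at 5.79 times the LPS mean, while Control and ApoA-I overlapped because Control 4 was above ApoA-I 4. With ApoA-I alone it rose by 1.08 (log2, SE 0.28) over Control with an adjusted p of 0.033 in edgeR's test. The adjusted p ran from 3.28e-08 to 0.142 over 24 alternatives. It missed 0.05 in 7 of them: with only the Control and ApoA-I libraries (0.142) and when leaving out Control 1 (0.102), Control 2 (0.0743), Control 3 (0.122), ApoA-I 1 (0.118), ApoA-I 2 (0.067) or ApoA-I 3 (0.0716). Without Control 4 and ApoA-I 4 together the change was 1.84. On the TMM scale, which sets libraries level over most genes, its fitted LPS change was 0.57 with a wide SE of 0.30. It met the LPS condition in TPM only.

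ENSRNOG00000000640 had the next largest ratio upward. In TPM it had 6.40, 5.98, 4.90 and 5.04 in Control, 12.25, 7.46, 9.42 and 7.24 for ApoA-I, 4.41, 4.76, 4.50 and 4.34 for LPS and 24.09, 22.29, 23.75 and 21.28 with both agents. The 4 groups kept apart in TPM in the order LPS, Control, ApoA-I and LPS+ApoA-I, with the LPS+ApoA-I mean at 5.08 times the LPS mean. It rose with ApoA-I alone by 0.63 (log2, SE 0.12; edgeR adjusted p = 0.0039), higher in 4 of 4 ApoA-I libraries. Over 24 alternatives the change ran from 0.49 to 0.72. The call was lost in 1 of them, the fit with only the Control and ApoA-I libraries (adjusted p = 0.0561). This gene met the rule in TPM and on the TMM scale. On the TMM scale its fitted LPS change was 0.12 (SE 0.13), so LPS did not stand below Control there.

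ENSRNOG00000005041 had the largest ratio downward under the same condition. In TPM it had 13.33, 16.07, 14.36 and 10.50 in Control, 18.16, 13.77, 15.01 and 16.78 for ApoA-I, 15.99, 15.51, 16.88 and 17.84 for LPS and 2.17, 1.21, 2.74 and 1.82 with both agents. The LPS mean was 8.34 times the LPS+ApoA-I mean, and the other 3 groups overlapped. With ApoA-I alone the fitted log2 change was 0.15 (SE 0.14) with an edgeR adjusted p of 0.63. On the TMM scale its LPS change was 0.72.

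ENSRNOG00000023226 had the next largest ratio downward. In TPM it had 196.46, 177.96, 162.49 and 220.92 in Control, 220.80, 211.29, 171.60 and 199.18 for ApoA-I, 243.27, 254.65, 221.17 and 276.17 for LPS and 63.68, 58.29, 61.31 and 58.82 with both agents. LPS libraries were above all Control libraries by a narrow margin, and LPS+ApoA-I was far below all others, with the LPS mean 4.11 times higher. With ApoA-I alone the fitted log2 change was -0.0034 (SE 0.096; edgeR adjusted p = 0.99). On the TMM scale its LPS change was 0.82, and its mean CPM (counts scaled to library size) went from 38.3 in Control to 66.8 in LPS and 15.2 in LPS+ApoA-I libraries.

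**Figure D3:**
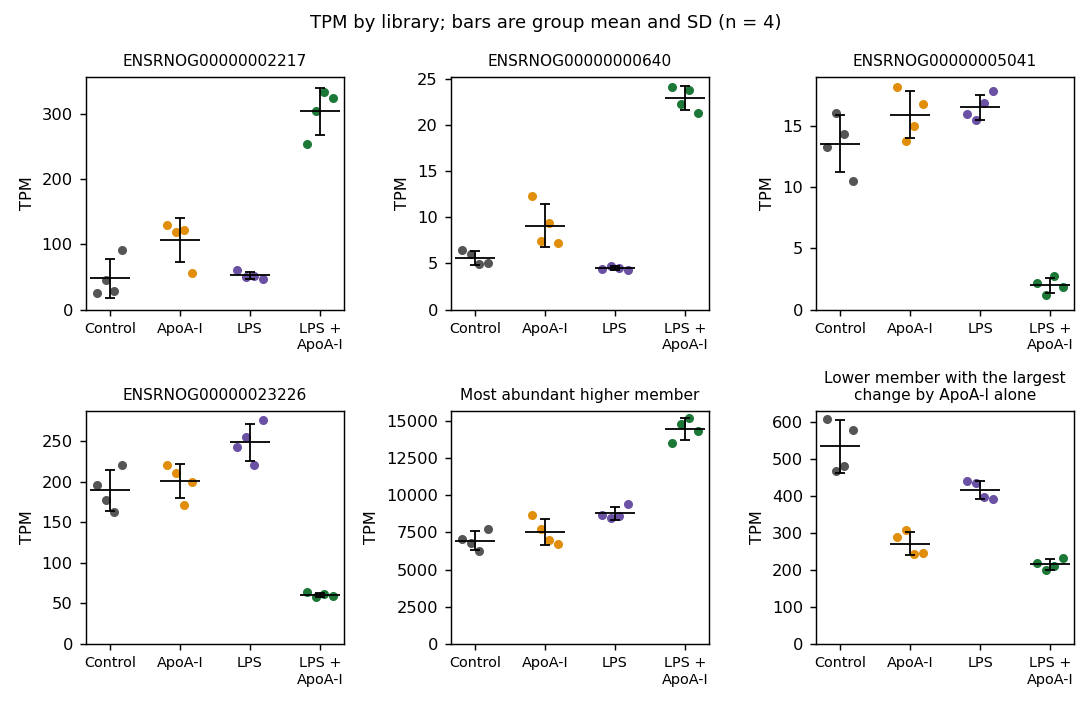
TPM of 6 members by library (points), with group mean and SD as bars (n = 4), each panel on its own linear axis from 0. ENSRNOG00000002217 and ENSRNOG00000000640 are highest in LPS+ApoA-I, ENSRNOG00000005041 and ENSRNOG00000023226 are lowest there, and the last panel shows a gene that is low in both groups given ApoA-I.

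The rule did not use the ApoA-I libraries, so ApoA-I was tested against Control, which shares the Control libraries with the rule. LPS+ApoA-I against ApoA-I shares the libraries in which members were chosen to be high or low and was not used as a test: its fitted change was above 0 in 81 of 81 higher and below 0 in 61 of 65 lower members. Of the 81 tested higher members, 12 rose in ApoA-I against Control and 0 fell (edgeR's quasi-likelihood test, adjusted p under 0.05 over all 11902 genes), which was 14.8% beside 2.50% of all tested genes called higher. Of the 65 tested lower members, 10 fell and 1 rose, and the 10 were 15.4% beside 1.77% of all tested genes called lower. At an unadjusted p under 0.05 in edgeR, 32 higher members were above Control and 0 below, and 20 lower members were below and 4 above, beside 10.02% of all tested genes above and 8.86% below. DESeq2 called 14 higher members up and 0 down, and 10 lower members down and 2 up, beside 4.23% of all tested genes up and 2.55% down. Most members were not called: 69 higher and 54 lower members missed the threshold. The median fitted log2 change was 0.15 for higher and -0.05 for lower members, beside -0.00028 for all tested genes. The values were above 0 in 62 and below 0 in 19 higher members, and below 0 in 41 and above 0 in 24 lower members, while 49.8% of all tested genes were above 0.

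These counts moved with single libraries, and the share of all genes called moved with them. Of the higher members, 21 rose when Control 4 was left out, 17 when ApoA-I 4 was left out and 22 with both left out, where 4.22%, 3.6% and 5.31% of all genes were called higher. The number was 8 with Control 2 left out, 7 with Control 3 left out and 5 with ApoA-I 1 left out, where 1.47%, 0.915% and 0.791% of all genes were called higher. Of the lower members, 5 fell without Control 1 and 5 without ApoA-I 1, where 1.02% and 0.758% of all genes were called lower. Among all 13 members called higher, Control 4 was the highest Control library in 9, ApoA-I 4 the lowest ApoA-I library in 6 and ApoA-I 1 the highest in 12. Over all tested genes these shares were 21.3%, 24.6% and 49.2%. Beyond the fits without them, the part of these libraries in the result was not tested. A fit with only the Control and ApoA-I libraries called 2 higher members and 4 lower members, and it called 0.356% and 0.46% of all genes in these directions. Scaling by library totals called 15 members higher and 4 lower (2.97% and 0.605% of all genes), and limma on log2(TPM + 1) called 14 and 3 (2.13% and 0.479%), beside 13 and 10 in the edgeR fit.

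**Figure D4:**
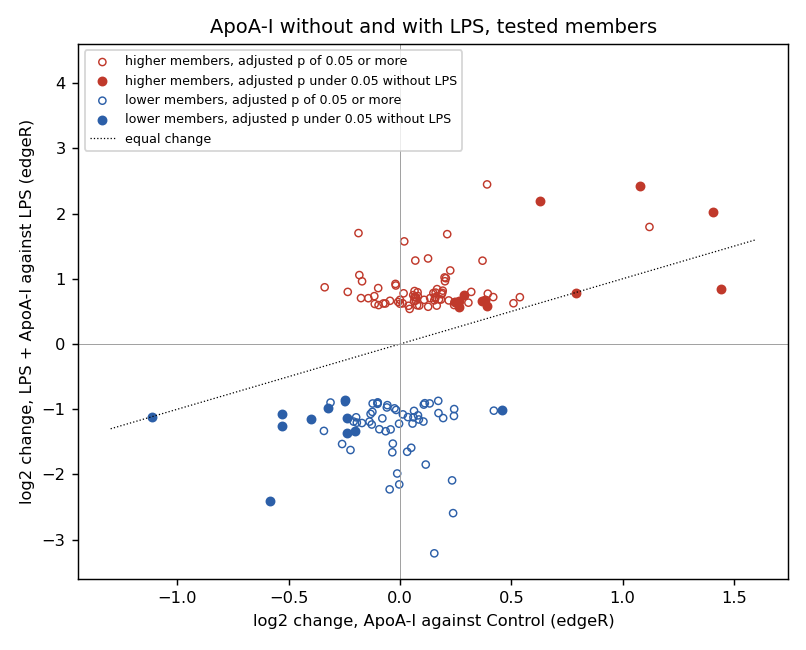
Each circle is a tested member, with its edgeR log2 change by ApoA-I without LPS on the horizontal axis and with LPS on the vertical axis; filled circles had an adjusted p under 0.05 without LPS and the dotted line marks equal change. Most members lie near 0 on the horizontal axis, and few lie near the line.

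Most members therefore had a larger ApoA-I difference with LPS than without it, as the rule's own choice of the LPS contrast favours. The change without LPS divided by that with LPS had a median of 0.19 in higher and 0.032 in lower members. It was at least 0.5 in 11 of 81 and 1 of 65, and its largest value in higher members was 1.73, a larger change without LPS. The fitted interaction, the change with LPS minus that without, had a median of 0.63 in higher and -1.11 in lower members. It was below 0 in 2 higher members, at lowest -0.61, and above 0 in 1 lower member. These values share libraries with the rule and carry no test.

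A few members had ApoA-I differences of like size with and without LPS. A lower member with an LPS mean of 417 TPM had values of 609.14, 467.33, 480.52 and 579.51 in Control, 287.71, 307.33, 243.91 and 246.69 for ApoA-I, 441.53, 434.76, 397.10 and 392.81 for LPS and 219.62, 199.38, 209.28 and 232.96 with both agents. All 8 libraries given ApoA-I were below all 8 without it, whether LPS was present or not. The gene fell by 1.11 on the log2 scale with ApoA-I alone (SE 0.10; edgeR adjusted p = 2e-06), the largest fall among lower members, and its fitted interaction was 0.0005. It met the rule on both scales.

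A higher member had TPM of 36.52, 36.85, 31.65 and 60.95 in Control, 100.33, 72.28, 73.95 and 57.45 for ApoA-I, 34.06, 36.14, 32.44 and 27.22 for LPS and 60.98, 55.38, 66.53 and 61.68 with both agents. Control 4 lay above ApoA-I 4, and the other 3 Control libraries were below all ApoA-I libraries. It rose with ApoA-I alone by 0.79 (log2, SE 0.17; edgeR adjusted p = 0.0095), beside 0.78 with LPS. The change was 1.05 without Control 4, 0.90 without ApoA-I 4 and 1.16 without both. Without ApoA-I 1 it was 0.65 and the call was lost (edgeR adjusted p = 0.053).

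Another higher member, of low level, had a larger fitted change with LPS than without it, by an uncertain margin. It had TPM of 1.47, 1.66, 1.18 and 2.43 in Control, 7.24, 5.50, 4.08 and 1.99 for ApoA-I, 1.70, 1.05, 0.93 and 1.48 for LPS and 4.95, 5.04, 6.17 and 6.94 with both agents. Control 4 again lay above ApoA-I 4. The gene rose by 1.41 with ApoA-I alone (SE 0.28; edgeR adjusted p = 0.0059), beside a fitted 2.03 with LPS. Its fitted interaction was 0.62 (SE 0.41). The change without LPS was 1.65 without Control 4, 1.66 without ApoA-I 4, 1.90 without both and 1.17 without ApoA-I 1, and it was called each time (highest edgeR adjusted p = 0.0357). The 12 called higher members rose by 0.25 to 1.44.

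Lower members that fell with ApoA-I alone did so by less than with LPS, apart from the gene above. The next falls were by 0.59 (SE 0.13; edgeR adjusted p = 0.010), by 0.53 (SE 0.098; adjusted p = 0.0034) and by 0.53 (SE 0.11; adjusted p = 0.0086). The first had TPM of 14.85, 11.83, 13.01 and 11.66 in Control, 8.36, 7.98, 10.29 and 9.37 for ApoA-I, 13.12, 14.79, 10.34 and 12.98 for LPS and 2.87, 2.31, 3.30 and 2.15 with both agents. Control and ApoA-I did not overlap, Control and LPS did, and LPS+ApoA-I was lowest. Without ApoA-I 1 its change was -0.52 and the call was lost (edgeR adjusted p = 0.0521). The lower member that rose with ApoA-I alone changed by 0.46 (SE 0.12; edgeR adjusted p = 0.031), from 6.61, 7.14, 6.06 and 6.29 to 12.65, 7.42, 8.60 and 9.16 TPM. It was 4.98, 4.06, 5.56 and 4.89 TPM in LPS+ApoA-I libraries, below all Control libraries. Without ApoA-I 1 its change was 0.32 and the call was lost (edgeR adjusted p = 0.156).

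Which genes count as insensitive to LPS depended on the scale. On the TMM scale the LPS change of higher members had a median of 0.23 and that of lower members one of 0.62, beside -0.037 for all tested genes. It was 0.4 or more in 26 of 81 higher and 47 of 65 lower members, and -0.4 or less in 0 of either. Over all tested genes the quartiles of this change were -0.71 and 0.49, so values of 0.4 or more were also common there. The upper quartile in higher members was 0.47, so their count at 0.4 or more is not read as particular to them. In edgeR's fit 39 higher and 56 lower members passed an adjusted p of 0.05 for LPS against Control, all upward. Over all tested genes 74.7% passed in either direction. The share that passed upward is not given here, so the upward counts are not read against it. The rule used this contrast, so the counts are a description.

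**Figure D5:**
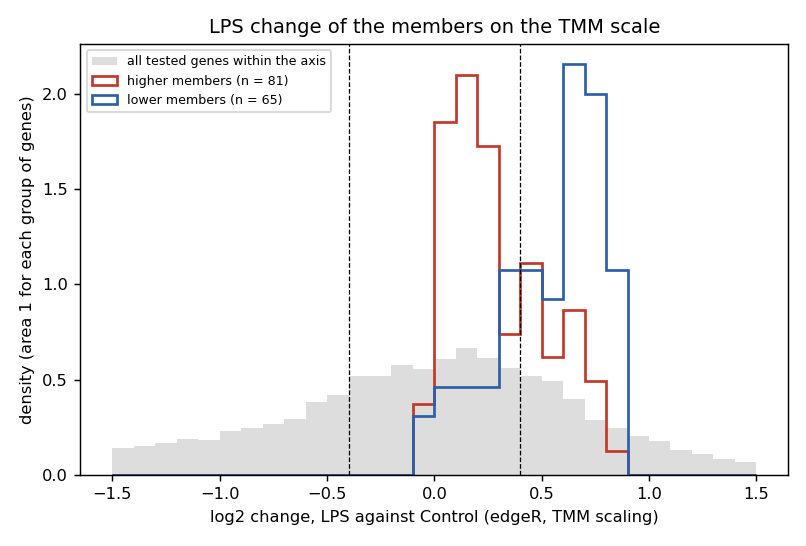
The horizontal axis is the edgeR log2 change of LPS against Control on the TMM scale and the vertical axis the density of genes, for all tested genes (grey), higher members (red, n = 81) and lower members (blue, n = 65); dashed lines are at 0.4 in size. Most lower members (47 of 65) lie at or above 0.4, and most higher members (55 of 81) lie within the lines. The upper quartile is 0.47 for higher members and 0.49 for all tested genes.

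The same rule applied to CPM with TMM scaling gave 97 higher and 79 lower genes. Of these, 28 were among the 85 higher members (32.9% of the members, 28.9% of the genes on the CPM scale) and 20 among the 66 lower members (30.3% and 25.3%). Of the 57 higher members that met the rule in TPM only, 24 had an LPS ratio of 0.4 or more in CPM and 45 a ratio of LPS+ApoA-I over LPS within 0.7. Of the 46 such lower members, 44 had an LPS ratio of 0.4 or more in CPM. The set on both scales was formed after values were seen and gets no test.

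The 28 higher members on both scales had a fitted LPS change from -0.09 to 0.35 (median 0.16) and a fitted change of LPS+ApoA-I against LPS from 0.71 to 2.45 (median 0.86). Their mean TPM ran from 1.29 to 102 in LPS and from 5.78 to 272 in LPS+ApoA-I libraries. None of the 28 overlapped between these groups, while 36.6% of the 9336 genes had LPS+ApoA-I above LPS without overlap. In 25 of the 28, LPS+ApoA-I lay above all 12 other libraries, against 5.22% of the 9336 genes. The rule used these libraries, so these counts are a description. With ApoA-I alone 4 of the 28 rose, beside 2.50% of all tested genes called higher. This number was not counted again with libraries left out. The most abundant had TPM of 98.91, 102.56, 85.12 and 166.69 in Control, 193.85, 150.98, 148.26 and 125.81 for ApoA-I, 99.94, 99.15, 96.80 and 112.83 for LPS and 266.42, 275.90, 279.22 and 266.31 with both agents. Its Control and ApoA-I values overlapped through Control 4, and its change with ApoA-I alone was 0.37 (SE 0.14; edgeR adjusted p = 0.13). It was 0.63 and called without Control 4 (edgeR adjusted p = 3.8e-05), 0.45 without ApoA-I 4 (0.0592) and 0.71 and called without both (1.53e-07). Without ApoA-I 1, its highest ApoA-I library, the change was 0.28 and not called (edgeR adjusted p = 0.397). Another stood at 1.20, 1.25, 1.27 and 1.32 in Control, 2.32, 2.58, 1.67 and 1.61 for ApoA-I, 1.39, 1.21, 1.01 and 1.71 for LPS and 8.08, 7.91, 7.94 and 8.41 with both agents. Its 4 LPS+ApoA-I values lay close together and far above the rest, and all ApoA-I values were above all Control values. The change with ApoA-I alone was 0.39 (SE 0.16; edgeR adjusted p = 0.16).

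The 20 lower members on both scales had a fitted LPS change from -0.09 to 0.41 (median 0.29) and a fitted change of LPS+ApoA-I against LPS from -2.59 to -0.90 (median -1.19). Their mean TPM ran from 6.85 to 417 in LPS and from 1.22 to 229 in LPS+ApoA-I libraries. All 20 had LPS+ApoA-I values below all 12 other libraries, against 5.88% of the 9336 genes. The rule used these libraries, so this count is a description. With ApoA-I alone 4 of the 20 fell, beside 1.77% of all tested genes called lower. This number too was not counted again with libraries left out. One had TPM of 23.62, 22.75, 24.88 and 17.20 in Control, 23.51, 19.73, 25.49 and 21.62 for ApoA-I, 20.48, 19.74, 19.53 and 22.44 for LPS and 3.30, 4.96, 4.97 and 5.87 with both agents. The first 3 groups overlapped and the last was far below them. Its fitted change was -0.05 (SE 0.11; edgeR adjusted p = 0.88) with ApoA-I alone and -2.23 under LPS.

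The most extreme ratios rested on almost no reads. The 3 largest ratios among higher members belonged to genes whose highest count in any library was under 3. They were at mean TPM 42.7, 13.992 and 12.1 in LPS+ApoA-I libraries. In one of them 2 counts in a single library were listed as 170.71 TPM. The largest ratio downward came from 1 count in Control 3 (41.47 TPM) and 1 in LPS 4 (46.24 TPM). These 4 genes and 1 further higher member were not tested, and no fold is given for them. With the rule limited to at least 10 counts per library on average, 80 higher and 64 lower members remained.

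Replicates of higher members spread more where ApoA-I was compared without LPS than under LPS. The median coefficient of variation (SD over mean of TPM) in higher members was 11.8% in Control, 13.8% for ApoA-I, 9.03% for LPS and 5.92% with both agents. In lower members it was 10.3%, 10.96%, 8.49% and 8.53% in this order. Over genes of the 9336 with at least 10 counts on average it was 8.86%, 9.999%, 9.10% and 6.69%.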

How the data were processed

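RNA was measured in 16 libraries, 4 per group given by the sample titles. The authors deposited expected (estimated) counts and TPM per gene. Per the submitters' processing notes, cutadapt 1.8.1, STAR 2.7.10b and RSEM 1.3.1 were used and the mouse build mm10 was named, although the identifiers are rat Ensembl; which rat annotation was used was not given in the sources used here.

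The deposited TPM chose the members as stated in the report. Members, lists and tests were chosen with earlier results of these data known. Deposited expected counts (3.24% not whole, tolerance 0.005) were rounded. Genes kept by filterByExpr with a minimum count of 10 (11902) were fitted in edgeR 4.0.16 (R 4.3.3) over all 16 libraries, with 1 mean per group, TMM factors and its quasi-likelihood test (12 residual degrees of freedom), with Benjamini-Hochberg adjustment over all genes. The size of a log2 change over the root of its F gives the SE. The scripts were tested on simulated data. Alternatives included DESeq2 1.42.0 and limma 3.58.1 on log2(TPM + 1).

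Planned gene lists, cell type markers, promoter motifs and the rule that named genes by symbol could not be applied: 0 identifiers could be looked up among 47357 RefSeq genes (GRCr8). Instead 4 identifiers are printed, the 2 largest ratios in each direction whose LPS+ApoA-I and LPS values do not overlap; other members described, and the libraries left out for them, were picked after their values were seen. Counts in 24 pairs of same-group libraries differed by more than sampling noise, so none was treated as a repeat.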

Additional observations from a re-analysis of the deposited data

Results flagged for a closer look

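In groups of 4 libraries, 44 groups of values were checked for a library far from the other 3, and 3 were found; chance gives about 1 in 20 such groups. In ENSRNOG00000002217, ApoA-I 4 had a TPM of 56.29 while the other ApoA-I libraries had 118.97 to 129.75. In the most abundant lower member, LPS 3 had a TPM of 3278 while the other LPS libraries had 3761 to 3831. The median log2 TPM ratio of higher members to their Control mean was 0.3579 in ApoA-I 1 and 0.13 to 0.16 in the other ApoA-I libraries; over all tested genes the same median was 0.14 in ApoA-I 1.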

How the results depend on the processing

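In ApoA-I against Control, 13 of the 146 tested members were called higher and 10 lower. Leaving out each library in turn gave 5 to 24 higher and 5 to 10 lower. With only the Control and ApoA-I libraries, 2 were higher and 4 lower. Library totals gave 4 lower and limma on log2(TPM + 1) gave 3 lower. Leaving out Control 4 and ApoA-I 4 together, chosen after the data were seen, gave 25 higher. Apart from fewer samples or genes, the cause was not tested. Upper quartile scaling, DESeq2 and no filter on low counts gave 13 to 17 higher and 10 to 11 lower. A fit with a replicate block gave 13 higher and 8 lower, but same-numbered libraries did not deviate together: over 24 pairs the correlation of deviations ran from -0.25 to 0.15, over 0.1 in 2, and a library correlated best with its own number in 7 comparisons.

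The number of members ran from 80 to 95 higher and 62 to 71 lower when each library of the 3 groups was left out, with 66 to 82 and 52 to 66 of the members shared. Other pseudocounts, TPM minimums and group medians gave 74 to 108 higher and 55 to 97 lower. Centring the TPM ratios on the median gene, chosen after the data were seen, gave 79 and 72, with 28 and 23 members shared. Depth limits genes of few counts, and 5 members were not tested.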
